A study of Sus scrofa with 6 samples.

Results

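The genes examined here make or move lipids in the endometrium, the inner lining of the uterus. They were 47 genes listed by name, of cholesterol synthesis and its control, of fatty acid synthesis and desaturation, and of lipid uptake, transport and storage. Through a table that pairs Ensembl pig gene identifiers with symbols, 43 of them matched a row of the deposited table, which holds 14262 genes. PMVK, LSS, CD36 and DGAT2 matched no row and are not analysed here. The tissue came from 6 Erhualian sows (Sus scrofa, a Chinese pig breed), all on day 12 of gestation, 3 of them labelled high prolific and 3 low prolific, with a library each. By their parity (litters so far), high 1 to high 3 were at 5, 8 and 8, and low 1 to low 3 at 7, 7 and 5. The labels give no further treatment or genotype. The table is of whole endometrium, so a lower value cannot be told apart from fewer cells of the type that makes the RNA.

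Cells make cholesterol from acetyl-CoA through the mevalonate pathway, and the transcription factor SREBP2 switches that pathway on when sterols in the endoplasmic reticulum run low. Its relative SREBP1 acts more on fatty acid genes, where acetyl-CoA carboxylase and fatty acid synthase build palmitate, elongases lengthen it, and desaturases place double bonds in it. Around day 12 the pig conceptus elongates and lives on what the uterine lining secretes. Endometrial fatty acids also feed the arachidonic acid from which prostaglandins are made.

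All values are normalized read counts, which the authors deposited without the depth behind them. The columns summed to between 22663087 and 24270245, sums that the normalization brings close together. On the first principal component of log2 values, which held 43.6% of the variance, low 2 and low 3 lay at 43.5 and 44.2, and the other 4 sows between -40.9 and -1.5. Results that rest on low 2 and low 3 are therefore also given without both.

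No member passed the test between the groups. At an adjusted p of 0.05 limma called 0 of 14262 genes (0%), and among members FADS6 came nearest, with an adjusted p of 0.511. Unadjusted, 7 of the 43 members had a p under 0.05, as did 1129 genes of the table (7.92%). The 3 high prolific sows lay wholly above or wholly below the 3 low prolific sows in 9 of the 43 members, against 13.5% of all genes. Of these 9, 7 lay lower in high prolific sows (6.32% of all genes) and 2 lay higher (7.18% of all genes). An exact two-sided permutation test on 1 gene, 3 against 3 sows, gives no p below 0.1 and was not used. The 9 members were not spread evenly: 5 of them were among the 10 genes of fatty acid synthesis and desaturation, 3 among the 14 of uptake, transport and storage, and 1 among the 19 of sterol synthesis and its control.

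**Figure D1:**
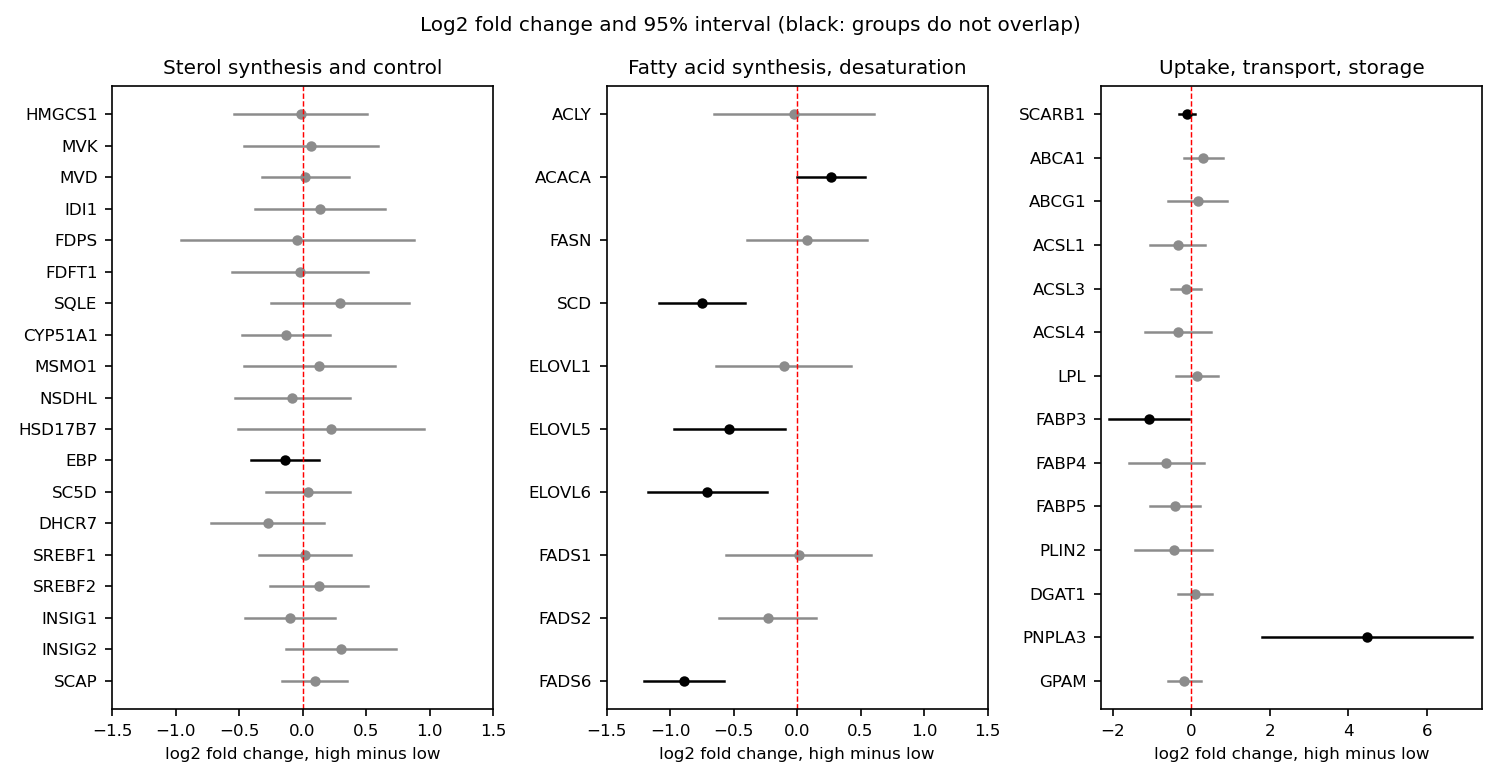
Log2 fold change (high minus low prolific, x axis, on the log2(value + 1) scale) of the 43 measured members in 3 panels, with 95% intervals from limma as lines. Black marks the 9 members whose groups did not overlap. The right panel has a wider axis, because PNPLA3 lay at 4.48. The intervals of all 19 sterol genes in the left panel stay between -1 and 1.

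Fatty acid synthesis and desaturation. The desaturases SCD and FADS6 and the elongases ELOVL5 and ELOVL6 lay lower in every high prolific sow than in any low prolific sow, while FADS1, FADS2 and ELOVL1 overlapped between the groups. Of these 7 members, 6 had a log2 fold change below 0, with a median of -0.53, against a median of -0.0024 over all genes. The 4 without overlap compare with 6.32% of all genes lower without overlap, and none passed the test. Other elongases and desaturases of a wider list, given further on, overlapped.

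SCD, stearoyl-CoA desaturase, makes the monounsaturated oleate and palmitoleate from saturated fatty acids. Its normalized read count was 1616, 1474 and 1207 in high 1 to high 3 and 2546, 2165 and 2476 in low 1 to low 3. The 2 groups were separated by 549, between high 1 and low 2. The high prolific mean was 1433 ± 208 and the low prolific mean 2396 ± 203 (SD, n = 3). The high prolific level was thus 1.68-fold lower, with a log2 fold change of -0.75 ± 0.14 (SE) and an adjusted p of 0.619 with limma. By unadjusted p it stood at rank 25 of the 14262 genes.

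FADS6, a little-characterised member of the fatty acid desaturase family, had the smallest unadjusted p of all measured members. Its normalized read count was 304, 380 and 311 in high 1 to high 3 and 615, 619 and 600 in low 1 to low 3. The 3 low prolific sows differed by less than the 3 high prolific sows did, with SDs of 10.2 and 41.9. The log2 fold change was -0.89 ± 0.13 (SE), 1.85-fold lower in high prolific sows, and FADS6 stood at rank 8 of all genes by unadjusted p (adjusted p = 0.511 with limma).

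ELOVL6, which lengthens palmitate to stearate, the substrate of SCD, was at 879, 592 and 811 in high 1 to high 3 and at 1013, 1326 and 1364 in low 1 to low 3. High 2 was the lowest sow, and the gap between the groups, from high 1 to low 1, was 135. On average ELOVL6 lay 1.63-fold lower in high prolific sows (log2 fold change -0.71 ± 0.19, SE). That value was -0.43 without both low 2 and low 3.

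ELOVL5, which lengthens polyunsaturated fatty acids on the way to arachidonic acid, was at 2261, 2073 and 2396 in high 1 to high 3 and at 2868, 4254 and 2784 in low 1 to low 3. Low 2 stood far above the other 5 sows. The log2 fold change of -0.53 ± 0.18 (SE) was -0.34 without low 2, and the 1.45-fold lower level in high prolific sows rested on that sow in part.

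The other desaturases and the elongase of very long chains overlapped between the groups. FADS1 and FADS2, the delta-5 and delta-6 desaturases of polyunsaturated fatty acid synthesis, had log2 fold changes of 0.01 ± 0.24 and -0.23 ± 0.16 (SE), and FADS1 was at -0.32 without both low 2 and low 3. Low 3 was the lowest of the 6 sows in FADS1 (1001) and the highest in FADS2 (1385). ELOVL1 was at no more than 87.0 in any sow, with a log2 fold change of -0.11 ± 0.22 (SE).

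Of the 3 enzymes that make palmitate, only ACACA separated the groups, and it did so upward. ACACA, acetyl-CoA carboxylase, the committed step of the pathway, was at 2472, 2869 and 2836 in high 1 to high 3 and at 2227, 2098 and 2451 in low 1 to low 3. High 1 and low 3 differed by only 20.5. In the RefSeq annotation of Sscrofa11.1 another gene overlaps ACACA and a long noncoding RNA overlaps ELOVL6, so reads of these pairs may be mixed. The log2 fold change was 0.27 ± 0.11 (SE), 1.21-fold higher in high prolific sows, with an adjusted p of 0.629 with limma.

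FASN, fatty acid synthase, was at 4589, 5333 and 5530 in high 1 to high 3 and at 5804, 5440 and 3662 in low 1 to low 3. The groups overlapped, with low 1 the highest and low 3 the lowest sow. Its log2 fold change of 0.08 ± 0.20 (SE) turned to -0.18 without both low 2 and low 3, to -0.13 without low 3 and to -0.03 with parity as a covariate. ACLY, ATP citrate lyase, which supplies acetyl-CoA, ranged from 4339 in low 3 to 8730 in low 1, with the high prolific sows between 5702 and 7098. Leaving out both low 2 and low 3 moved ACLY from -0.02 to -0.49 on the log2 scale. Over the 10 genes of fatty acid synthesis and desaturation the median log2 fold change was -0.17, which moved to -0.27 without low 3. With low 2 and low 3 both left out it was -0.34.

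**Figure D2:**
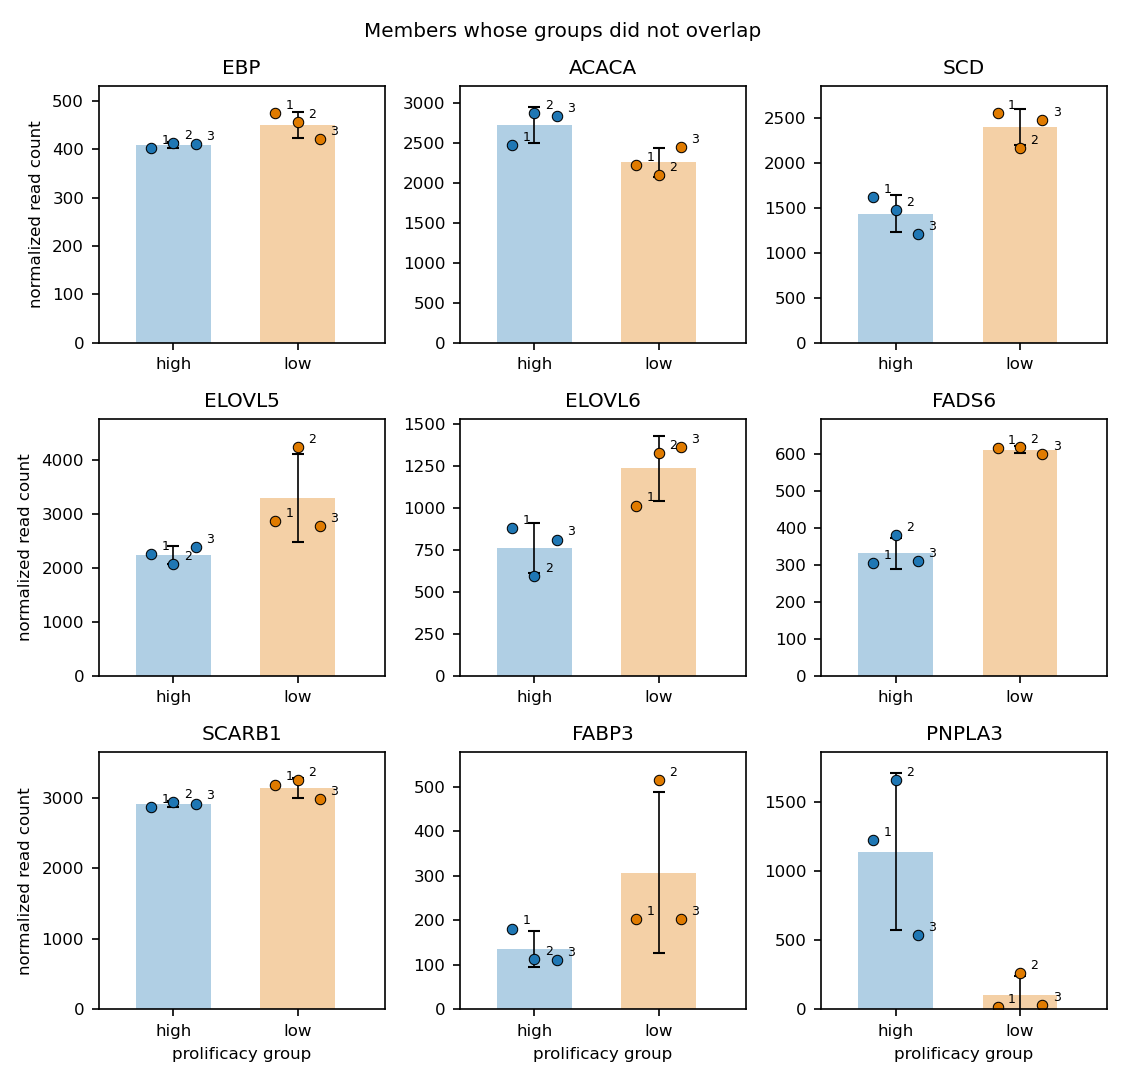
Normalized read counts (linear y axes from 0) of the 9 members whose groups did not overlap, with blue for high prolific and orange for low prolific. Each bar gives the mean of a group (n = 3), its whisker the SD, and each numbered point a sow. SCD and FADS6 leave the widest gaps for their spread among the members that lay lower, while EBP, ACACA and SCARB1 leave gaps of 8.94, 20.5 and 42.8. In FABP3 and ELOVL5 low 2 lies apart, at 515 and 4254.

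Sterol synthesis and its control. Cholesterol synthesis genes showed no shared difference between the groups. Of the 19 measured genes, 11 had a log2 fold change above 0 and 8 below, with a median log2 fold change of 0.02 and single values from -0.28 to 0.30. The 95% interval of each of the 19 lay within 2-fold in either direction, as it did for 10522 of the 14262 genes of the table. A larger difference between the group means would fall outside these intervals. Without both low 2 and low 3 the median turned to -0.14, with 16 of the 19 below 0. It also turned without high 1 (-0.03) and without low 2 (-0.08).

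The 14 enzymes, from HMGCS1, which makes the precursor of mevalonate, to DHCR7, which completes cholesterol, were divided evenly, with 7 above and 7 below 0. The early mevalonate steps were close to 0, with log2 fold changes of -0.02 for HMGCS1, 0.07 for MVK and 0.02 for MVD. IDI1, FDPS and FDFT1, which build the isoprenoid chain and join it to squalene, were at 0.14, -0.04 and -0.02. Without both low 2 and low 3, HMGCS1 was at -0.47, MVK at -0.02, MVD at -0.14, IDI1 at -0.29 and FDPS at 0.30, of which MVK, MVD, IDI1 and FDPS turned. FDPS varied most, from 460 in high 2 to 1254 in high 3, so its interval ran from -0.96 to 0.88.

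SQLE, squalene epoxidase, an oxygen-dependent control point, was at 3742, 2391 and 2296 in high 1 to high 3 and at 2646, 1899 and 2227 in low 1 to low 3. High 1 alone was well above the rest, and the log2 fold change of 0.29 ± 0.22 (SE) was 0.07 without it and 0.05 without both low 2 and low 3.

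The enzymes that trim and reshape the sterol ring lay on either side of 0. CYP51A1, MSMO1, NSDHL, HSD17B7 and SC5D had log2 fold changes of -0.13, 0.13, -0.08, 0.22 and 0.04. Without both low 2 and low 3 these were -0.30, -0.18, -0.35, -0.47 and -0.09, so that MSMO1, HSD17B7 and SC5D turned. EBP, which shifts a double bond in the ring, was the one sterol gene whose groups did not overlap, at 402, 412 and 411 in high 1 to high 3 and at 474, 456 and 421 in low 1 to low 3. The groups came within 8.94 of each other, and the difference was 1.10-fold (log2 fold change -0.14 ± 0.11, SE). DHCR7, the last reductase, was at 353, 358 and 256 in high 1 to high 3 and at 445, 366 and 353 in low 1 to low 3. Its groups overlapped only between 353 and 358. High 3 was the lowest and low 1 the highest sow (log2 fold change -0.28 ± 0.18, SE, and -0.48 without both low 2 and low 3).

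The control genes gave no direction either. SREBF2, which encodes SREBP2, was at 7199, 6236 and 5926 in high 1 to high 3 and at 7193, 5530 and 5137 in low 1 to low 3. High 1 and low 1 were nearly equal at the top of both groups (log2 fold change 0.13 ± 0.16, SE). SREBF1, which encodes SREBP1, was at 2078, 2353 and 1724 against 2088, 2191 and 1766, so that both groups covered the same range (0.02 ± 0.15). INSIG1, which holds the SREBP escort SCAP in the endoplasmic reticulum and is itself an SREBP target, was at 1323, 1251 and 1004 against 1294, 1125 and 1413 (-0.10 ± 0.15).

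INSIG2, its relative, was at 2586, 2461 and 2665 in high 1 to high 3 and at 2623, 1622 and 2126 in low 1 to low 3. Low 1 lay among the high prolific sows, and the log2 fold change of 0.30 ± 0.18 (SE) was -0.03 without both low 2 and low 3. SCAP was within 1858 and 2226 in all 6 sows.

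Lipid uptake, transport and storage. The widest difference of all members was in PNPLA3, and it lay higher in high prolific sows. PNPLA3 encodes a patatin-like phospholipase of lipid droplets, known best in liver, where its expression follows fatty acid synthesis through SREBP1. Its normalized read count was 1226, 1660 and 535 in high 1 to high 3 and 12.1, 263 and 27.8 in low 1 to low 3. The lowest high prolific sow thus stood 272 above the highest low prolific sow. The group means were 1140 ± 567 and 101 ± 140 (SD, n = 3), a ratio of 11.3. The log2 fold change was 4.48 ± 1.11 (SE), which is 22.2-fold with an interval from 3.50-fold to 141-fold. This was the second largest positive log2 fold change of the 14262 genes.

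**Figure D3:**
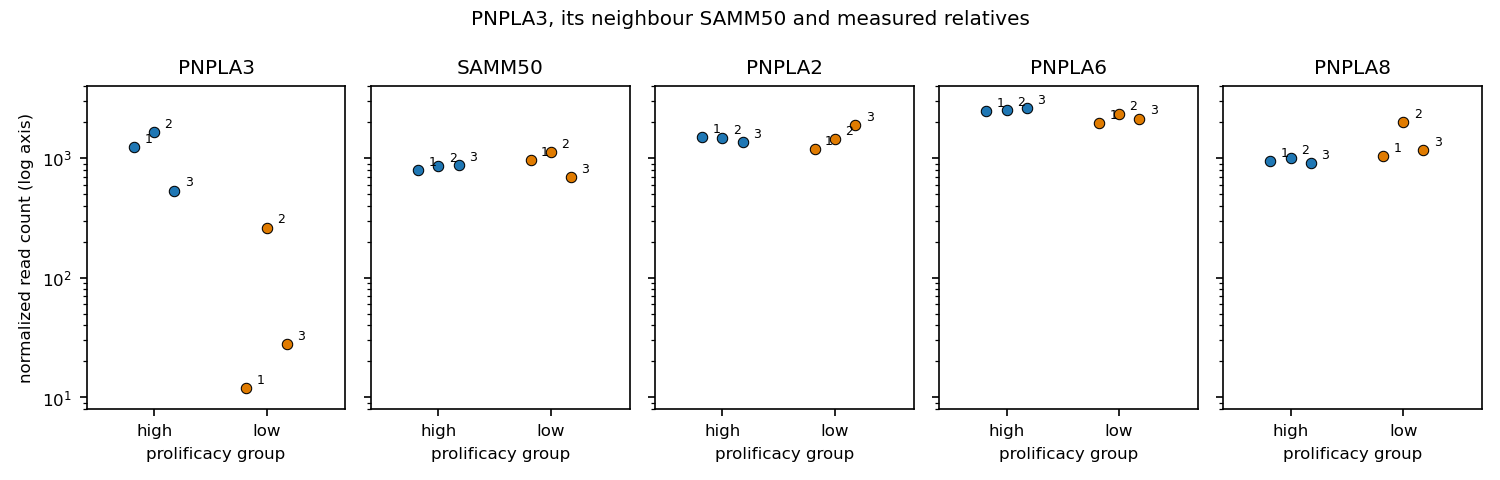
Normalized read counts (log y axis) in each sow of PNPLA3, of SAMM50 beside it on the chromosome, and of the measured patatin-like relatives PNPLA2, PNPLA6 and PNPLA8. Points are single sows with their label number, blue for high and orange for low prolific. PNPLA3 spans 12.1 to 1660, and the other 4 genes stay between 694 and 2608.

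The spread of PNPLA3 within each group was large as well, so that it did not pass (adjusted p = 0.619 with limma) and stood only at rank 118 by unadjusted p. Leaving out 1 sow at a time moved its log2 fold change between 3.56 (low 1 out) and 5.73 (low 2 out), and it was 6.30 without both low 2 and low 3. In RefSeq's order of genes on the assembly Sscrofa11.1, PNPLA3 lies between SAMM50 and SULT4A1, and an uncharacterised long noncoding RNA overlaps it. Since the strand setting of the counting is not given in the sources used here, reads of this RNA and of PNPLA3 cannot be told apart. SAMM50, a protein of the outer mitochondrial membrane, was at 791, 859 and 869 in high 1 to high 3 and at 969, 1114 and 694 in low 1 to low 3, with overlapping groups. The relative PNPLA2, the main triglyceride lipase of lipid droplets, overlapped too (log2 fold change -0.04). PNPLA6 lay higher without overlap at 0.24, and PNPLA8 lower without overlap at -0.50. These relatives and neighbours were chosen after the values were seen.

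The other storage genes showed no such difference. PLIN2, which coats lipid droplets, was at 787, 855 and 826 in high 1 to high 3 and at 821, 2235 and 765 in low 1 to low 3. Low 2 alone was high, and the log2 fold change of -0.44 ± 0.41 (SE) turned to 0.05 without it. DGAT1, which completes triglycerides, and GPAM, which starts glycerolipid synthesis, overlapped between the groups at 0.09 ± 0.18 and -0.18 ± 0.17 (SE), and were at 0.31 and -0.02 without both low 2 and low 3.

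Of the 3 fatty acid-binding proteins, carriers of fatty acids inside cells, only FABP3 separated the groups, and none passed the test. FABP3 was at 181, 112 and 109 in high 1 to high 3 and at 202, 515 and 203 in low 1 to low 3. Its groups came within 21.4 of each other, and low 2 was more than any other sow. The log2 fold change of -1.08 ± 0.42 (SE), or 2.11-fold lower, was -0.63 without low 2 and also without both low 2 and low 3. FABP4, also a marker of fat cells and of some capillaries, was low throughout, at 21.9, 21.1 and 35.2 in high 1 to high 3 and at 39.2, 61.3 and 26.4 in low 1 to low 3. The groups overlapped through high 3 and low 3 (log2 fold change -0.64 ± 0.39, SE), and without low 2 the value was -0.33. FABP5, the epidermal form, was at 113, 97.9 and 75.2 against 99.8, 160 and 125, again with low 2 highest (-0.42 ± 0.26). Without both low 2 and low 3 it was -0.08.

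Apart from FABP3, the genes of fatty acid uptake and activation overlapped between the groups. LPL, lipoprotein lipase, which frees fatty acids from circulating triglycerides, was at 2753, 2330 and 2179 in high 1 to high 3 and at 1592, 2275 and 2858 in low 1 to low 3. The low prolific sows held both the lowest and the highest value, and the log2 fold change of 0.14 ± 0.23 (SE) turned to -0.08 without low 1 and was 0.60 without both low 2 and low 3. The acyl-CoA synthetases ACSL1, ACSL3 and ACSL4, which activate fatty acids, were at -0.35, -0.14 and -0.34, with low 3 highest in ACSL1 (898) and ACSL4 (3850). Without both low 2 and low 3, ACSL1 was at -0.03, ACSL3 at -0.17 and ACSL4 at -0.35.

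Of the 3 sterol transport genes, SCARB1 lay lower in high prolific sows and ABCA1 and ABCG1 lay higher on average. None of them passed the test. SCARB1, the receptor for high-density lipoprotein, was at 2864, 2943 and 2917 in high 1 to high 3 and at 3187, 3253 and 2986 in low 1 to low 3. The groups did not overlap, yet the difference was only 1.08-fold (log2 fold change -0.11 ± 0.09, SE). ABCA1 and ABCG1, which export cholesterol and are targets of the sterol-sensing liver X receptors, lay at 0.30 ± 0.21 and 0.16 ± 0.31 (SE), and ABCG1 was at 7400 in high 3 and between 3323 and 4225 in the others. The groups overlapped in both genes. Without both low 2 and low 3, ABCA1 was at 0.53 and ABCG1 at 0.08. Over the 14 genes of uptake, transport and storage the median was -0.16, and leaving out low 2 or low 3 brought it to -0.07 and -0.04, and leaving out both to -0.02.

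Across single sows, the sterol enzymes varied within the groups as much as between them. Low 1 was the highest of the 6 sows in 8 of the 14 sterol enzymes and the lowest in none, while low 2 was the lowest in 7 and the highest in none. Over all 14262 genes low 1 was highest in 1900 and low 2 lowest in 3043. The mean deviation of the 14 enzymes from their own means, in log2 units, was 0.20 in low 1 and 0.17 in high 1, against -0.18 in low 2, -0.09 in high 3, -0.06 in high 2 and -0.04 in low 3. The low prolific sows thus held both ends of the range. Among the 14 genes of uptake, transport and storage, low 2 was highest in 6. In 2 smaller sets the mean deviation of every high prolific sow was below that of every low prolific sow. For the 7 desaturases and elongases it was -0.17, -0.30 and -0.22 in high 1 to high 3 and 0.22, 0.30 and 0.17 in low 1 to low 3. For the 7 genes of fatty acid uptake and activation it was -0.06, -0.28 and -0.27 against -0.02, 0.37 and 0.26, so that high 1 and low 1 were nearly level. These set means are a description of genes already shown above and carry no test.

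**Figure D4:**
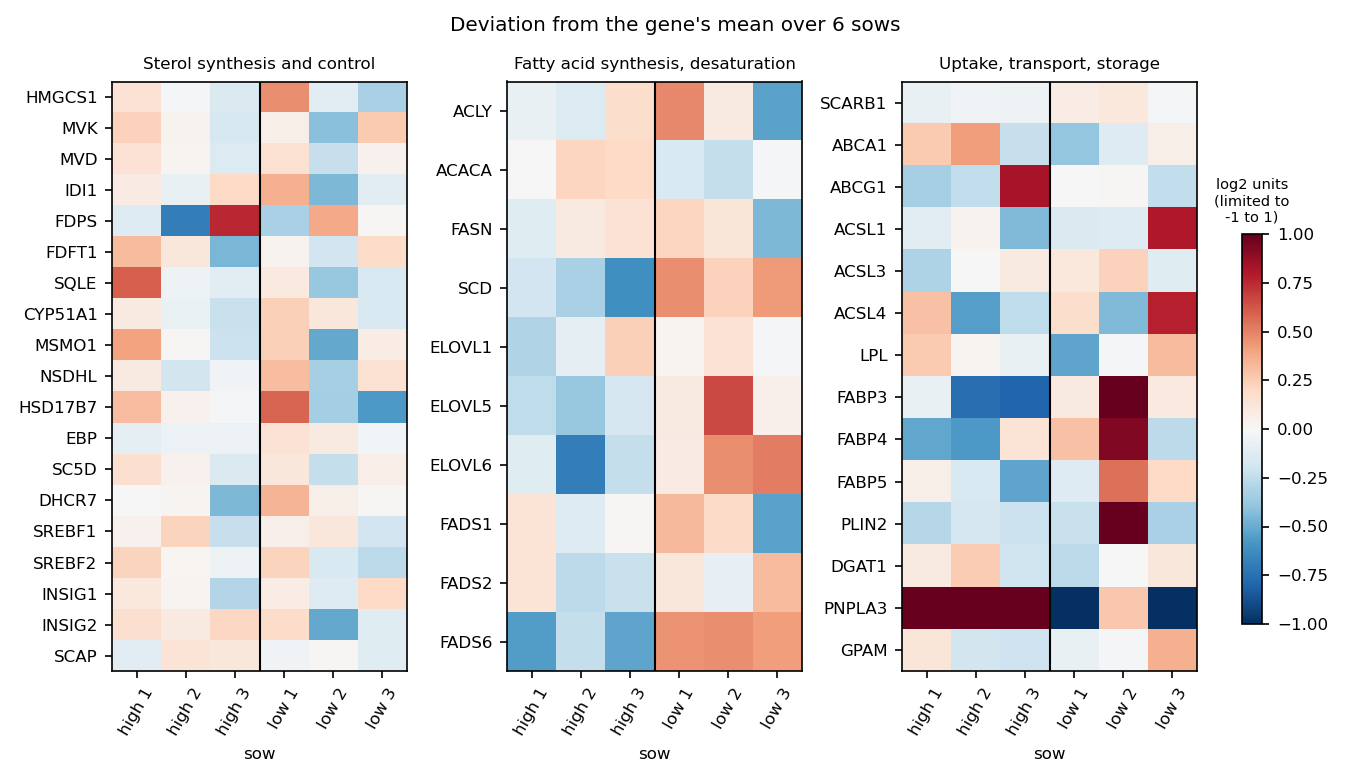
Deviation of each member from its mean over the 6 sows, in log2(value + 1) units, with colour limited to -1 to 1 and the vertical line parting high (left) from low (right) prolific sows. In the left panel the red of low 1 and high 1 stands beside the blue of low 2, a pattern by sow. In the middle panel SCD, ELOVL5, ELOVL6 and FADS6 are blue in all 3 high and red in all 3 low prolific sows.

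Other genes of the same pathways, 83 measured of 96 listed, did not shift as a whole. Among them 38 had a log2 fold change above 0 and 45 below (median log2 fold change -0.01), and 0 passed the test with limma. The groups did not overlap in 14 of the 83, near the 13.5% of all genes, and 6 of the 83 had an unadjusted p under 0.05, near the 7.92% of all genes. The 17 other genes of fatty acid synthesis had a median of -0.04, and its 3 genes with the smallest p all act beside the elongases. HACD2, a dehydratase of the elongation cycle, was at 2638, 3915 and 2916 in high 1 to high 3 and at 2470, 1885 and 1863 in low 1 to low 3, so that it lay above the low prolific sows (log2 fold change 0.60 ± 0.19, SE). HSD17B12, the reductase of the same cycle, lay on the other side, at 1564, 1350 and 1425 against 1779, 3272 and 1755 (-0.59 ± 0.25). HACD3, another dehydratase, was at 0.24, also without overlap, while the related HACD1 overlapped at -0.33. The elongation cycle thus held genes without overlap in both directions. HACD1 and the elongases and desaturases of this wider list are named after their values were seen. The groups overlapped in each of the latter, with log2 fold changes of 0.46 for ELOVL2, 0.21 for ELOVL4, -0.24 for ELOVL7, -0.05 for SCD5 and -0.43 for FADS3.

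The 21 other sterol genes had a median of -0.04. Of these, 7 were above 0 and 14 below, and the groups did not overlap in 2, both lower, against 13.5% of all genes. STARD4, which carries cholesterol between membranes, lay lower without overlap (-0.47 ± 0.21, SE), though high 3 (530) and low 3 (533) were nearly level. Its relative STARD5 was at -0.67 ± 0.33 and NPC1, which exports cholesterol from lysosomes, at 0.52 ± 0.29, both with overlapping groups. The 27 other genes of uptake and storage had a median of -0.0059. Of these, AGPAT3, an acyltransferase of phospholipid synthesis, was at 6407, 6668 and 5989 in high 1 to high 3 and at 7237, 10013 and 9819 in low 1 to low 3 (-0.49 ± 0.15, SE). MGLL, monoglyceride lipase, lay lower without overlap as well (-0.50 ± 0.18). Of the 27, the groups did not overlap in 5, against 13.5% of all genes. The other 3 were SLC27A4, a fatty acid transporter, at -1.10, and, on the higher side, DBI, an acyl-CoA-binding protein, at 0.51 and LPIN3, a phosphatidate phosphatase, at 0.20. In SLC27A4 low 2 stood far above the other sows, at 4186. Its nearest sows, high 1 and low 3, were at 961 and 1009. SLC27A4 and LPIN3 were picked out after their values were seen.

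Markers of the cell types in the lining are given beside these results, and their part in them was not tested. Epithelial markers, 6 measured of 8, summed to between 65070 and 69079 in high and between 52942 and 77290 in low prolific sows, and 4 of the 6 had a log2 fold change above 0, all with overlapping groups. The other 2, CDH1 (-0.39) and CLDN4 (-0.63), lay lower in high prolific sows without overlap. Without both low 2 and low 3 the epithelial median turned from 0.21 to -0.32, with 5 of the 6 below 0. Stromal markers, 7 of 8 measured, summed to between 487579 and 667575 against 585025 and 794241, with 6 of 7 lower. Their median log2 fold change of -0.28 was -0.05 without both low 2 and low 3. LUM (-0.28) and PDGFRB (-0.28) lay lower in high prolific sows without overlap, and the other stromal markers overlapped. Endothelial markers, 5 of 7 measured, summed to between 9190 and 13751 against 11578 and 20937, with 5 of 5 lower and low 2 and low 3 highest. Without both low 2 and low 3 the endothelial median turned from -0.45 to 0.15, with 4 of the 5 above 0. PECAM1 (-0.90) lay lower in high prolific sows without overlap, and the other endothelial markers overlapped. Smooth muscle markers, 5 of 6 measured, summed to between 20816 and 27846 against 20140 and 28634, and MYH11 was the largest part of that sum in each sow. Of the 5, 4 lay lower in high prolific sows, and ACTA2 (-0.98), DES (-1.11) and CNN1 (-0.77) did so without overlap. Of the fat cell markers only CIDEC and LIPE were measured, and they summed to between 222 and 250 against 215 and 294. ADIPOQ, LEP, PLIN1 and PLIN4 matched no row. Macrophage markers, 6 of 6 measured, summed to between 2977 and 3422 against 3234 and 4378, and lymphocyte markers, 5 of 6, to between 1562 and 2223 against 1491 and 1777. Neutrophil markers, 3 of 5 measured, summed to between 108 and 1679 in high prolific sows and to 422, 12991 and 16338 in low 1 to low 3. In low 2 and low 3 that sum was mostly S100A8 and S100A12, with log2 fold changes of -4.75 and -4.58. The third marker, CSF3R, went the other way (0.66), and low 2 was its lowest sow (44.3). All 3 had overlapping groups. None of the measured markers was listed at 0 in a sow. The markers of epithelium and stroma were high in each sow, as the label endometrium implies.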

How the data were processed

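RNA of the endometrium of 6 sows was measured with an Illumina library each. The authors deposited 1 table of normalized read counts, a signal with fractional values whose column sums differ. Subread 1.6, featureCounts and edgeR were used, per the submitters' processing notes. Roles, settings, genome build, annotation and strand were not given in the sources used here. All 14262 genes of the table were at 10 or more in at least 3 libraries, so low genes had been removed earlier. Sequencing depth is unknown. Because the values could not be turned back into whole reads, count models were not used.

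Symbols matched 11977 genes. The comparison used limma 3.58.1 (R 4.3.3) with values as log2(value + 1), which understates the change of low genes, with a variance trend and robust moderation, two-sided, adjusted by the Benjamini-Hochberg method over all genes at 0.05. A positive log2 fold change means a higher level in high prolific sows. Samples are single sows per the labels' titles. The fit was tested on simulated data. Members and lists were chosen with earlier results of these data known. Values in every sow are given for members whose groups did not overlap, for the 4 members of each set with the smallest p, and for 8 fixed genes. At most 3 genes of each wider list are named, and 1 result is not reported here. The 16 alternatives were other pseudocounts, a filter on low genes, other scalings, no variance trend, library weights, parity as a covariate, the label number as a block, each sow left out, and low 2 and low 3 both left out.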

Additional observations from a re-analysis of the deposited data

How the results depend on the processing

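Over the 16 alternatives no member passed the test, and the lowest adjusted p of the 20 genes with values in every sow was 0.183 with limma. The number of genes past the threshold was 0 except without low 1 (4) and without low 2 (1), a range of 0 to 4 over the left-out sows. Of the 20 genes, 13 kept their direction throughout, among them SCD (-0.84 to -0.63), FADS6 (-0.99 to -0.83), ELOVL6 (-0.84 to -0.43), ELOVL5 (-0.64 to -0.34), ACACA (0.22 to 0.34) and PNPLA3 (3.56 to 6.30). The other 7 turned at least once. Without both low 2 and low 3, SREBF1 was at -0.037, SREBF2 at -0.16, INSIG2 at -0.030, FASN at -0.18 and PLIN2 at 0.0018. With parity as a covariate SREBF1 was at -0.0011 and FASN at -0.025. Over single left-out sows SREBF1 ran from -0.084 to 0.14, INSIG1 from -0.19 to 0.017, FASN from -0.13 to 0.20, LPL from -0.082 to 0.34 and PLIN2 from -0.72 to 0.053. The set medians without both low 2 and low 3 were -0.14 for sterol genes and -0.34 for fatty acid synthesis, whose range over single left-out sows was -0.27 to -0.12. The cause was not tested.

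With the label number as a replicate block, 0 genes passed and 615 were at an unadjusted p under 0.05. The set medians were as reported (-0.17 for fatty acid synthesis). Neither this block nor leaving out the variance trend can change a fold change here, so the same direction in these settings was fixed in advance. The numbers did not pair the sows: deviations from the group means correlated at -0.378, -0.163 and -0.357 between sows of the same number. With 3 sows a group and an unknown depth, no gene passed in the main fit, PNPLA3 with its 22.2-fold difference included. A gene that did not pass may therefore still differ, also among low genes such as FABP4 and ELOVL1.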

Other observations

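Fatty acid oxidation, the breakdown of fatty acids for energy, showed members on both sides. Of 18 measured genes, 10 had a log2 fold change above 0 and 8 below (median log2 fold change 0.0023), and none passed with limma, with 3 of the 18 at an unadjusted p under 0.05, against 7.92% of all genes. ACADL, the long-chain acyl-CoA dehydrogenase, was at 1102, 748 and 919 in high 1 to high 3 and at 642, 620 and 653 in low 1 to low 3 (log2 fold change 0.51 ± 0.16, SE). ACADVL, the very-long-chain dehydrogenase, lay lower, at 1237, 1179 and 1091 against 1514, 1425 and 1328 (-0.28 ± 0.10). ACADL and ACADVL separated the groups without overlap, as did ACADM, the medium-chain dehydrogenase (-0.27), which was picked out after its values were seen.

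LIPM, a member of the acid lipase family, also stood far apart at a low level, and was chosen after its values were seen. It was at 53.0, 34.2 and 61.6 in high 1 to high 3 and at 8.98, 10.9 and 1.33 in low 1 to low 3, with a log2 fold change of 2.92 ± 0.68 (SE) that did not pass (adjusted p = 0.619 with limma).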
